A study of Mus musculus with 6 samples.

Results

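Transcripts of 10 inflammatory genes of myeloid cells were followed in leukaemic mouse bone marrow: Il1b, Il1rn, Tnf, Osm, Cxcl2, Ccl3, Ccl4, Ccl6, Acod1 and Saa3. They were chosen by symbol, and all 10 were found among the 30406 features that every matrix holds. The data are 6 droplet 3′ single-cell RNA libraries, 1 per group, from marrow of mice with acute myeloid leukaemia made, per the labels' protocol, by putting MLL-AF9 (MA9) or Hoxa9-Meis1 (HM) into mouse embryonic stem cells. The design sets deletion of Shp-1 (the phosphatase gene Ptpn6) against its floxed state, and chemotherapy against PBS. The groups are HM Shp-1 f/f given AraC + Dox (cytarabine and doxorubicin), HM Shp-1 f/f given PBS, MA9 Shp-1 Δ/Δ given AraC + Dox, MA9 Shp-1 Δ/Δ given PBS, MA9 Shp-1 f/f given AraC + Dox and MA9 Shp-1 f/f given PBS. The f/f state carries floxed alleles of Shp-1 without the deletion named in the labels, and both HM groups carry it. The labels used here name no Cre, strain, age or number of pooled animals, so each library stands for its marrow sample alone.

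Inflammatory cytokines are made by neutrophils, monocytes and macrophages after receptors for microbes or damage switch on NF-kappa-B. IL-1beta (Il1b) is made as a precursor, cut by an inflammasome protease, and blocked at its receptor by the antagonist Il1rn; TNF and oncostatin M (Osm) are further secreted cytokines. Cxcl2 draws neutrophils through the receptor CXCR2, and Ccl3 and Ccl4 are CC chemokines that attract leukocytes. Ccl6 is a rodent CC chemokine of myeloid cells, Acod1 makes the metabolite itaconate in activated myeloid cells, and Saa3 is a mouse acute-phase serum amyloid gene.

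After filtering, 2726 to 9204 cells and 14871153 to 96645184 UMIs (unique molecules) were kept per library, with medians of 3991.5 to 9876 UMIs per cell. The HM PBS library stood apart: 74.7% of its barcodes exceeded the mitochondrial limit, against 1.83% to 8.33% in the other 5, and 22.1% of its barcodes were kept. Pairs of MA9 libraries shared 17 to 25 cell barcodes, the HM pair shared 6, and no HM library shared one with an MA9 library. Among libraries labelled Δ/Δ, Ptpn6 stood at 43.6 CPM (counts per 1e+06 UMIs) with AraC + Dox and 171.8 CPM with PBS, and among those labelled f/f at 57.8 CPM with AraC + Dox and 185.7 CPM with PBS. Its level thus followed the treatment labels and not the deletion labels. A 3′ tag can lie outside a deleted part and then checks nothing, and the sources used here do not say where the deletion lies. Whether labels were exchanged between MA9 libraries cannot be told from these data and was not tested. These libraries are therefore called by their labels, and every direction drawn in MA9, between Δ/Δ and f/f or between AraC + Dox and PBS, rests on them.

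Each cell was assigned to a marker gate: mature neutrophil (such as Cxcr2, Mmp9 and Retnlg), immature neutrophil (Camp, Ngp, Ltf), monocyte (Csf1r, F13a1, Fn1), promyelocyte (Elane, Mpo, Prtn3), progenitor (Cd34, Flt3, Kit), macrophage (C1qa, C1qb), basophil and mast (Mcpt8, Cpa3), B or T and NK cells. None of the 10 genes is a gate marker. The gates overlap: 33.3% to 80.2% of the cells put in the mature neutrophil gate also passed another gate, and each went to the gate with the larger share of its markers.

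The stretches of promoter that hold a known motif are shown because several of these genes answer to the same signals. RefSeq had 10 promoter entries (GRCm38.p6) for 8 of the 10 genes, and the 250 bases before each start were searched on both strands. TATAAA, the TATA box, occurred in 3 of these 10 entries (Il1b, Tnf and Acod1) and in 12.4% of 32851 promoters. The kappa-B consensus, bound by NF-kappa-B, occurred in 1 (Cxcl2) and in 7.25% of promoters; its site there matches on both strands, 1 base apart. The C/EBP motif TTGCNNAA occurred in 1 (Saa3, on the opposite strand) and in 9.56% of promoters. The AP-1 motif TGANTCA occurred in 1 (Il1rn, 141 bases before a start) and in 6.75% of promoters. Each sequence below reads 5′ to 3′ on the gene's strand and ends 20 bases before the start, with the motif in capitals.
Il1b, TATA box, chr2:129371160-129371259, minus strand: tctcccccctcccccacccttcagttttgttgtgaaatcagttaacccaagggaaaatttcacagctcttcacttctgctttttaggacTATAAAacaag
Tnf, TATA box, chr17:35202028-35202127, minus strand: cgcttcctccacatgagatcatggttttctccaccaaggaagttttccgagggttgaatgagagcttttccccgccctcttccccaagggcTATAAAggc
Acod1, TATA box, chr14:103046892-103046991, plus strand: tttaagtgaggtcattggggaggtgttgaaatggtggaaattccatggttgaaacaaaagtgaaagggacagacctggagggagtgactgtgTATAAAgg
Cxcl2, kappa-B site, chr5:90903779-90903878, plus strand: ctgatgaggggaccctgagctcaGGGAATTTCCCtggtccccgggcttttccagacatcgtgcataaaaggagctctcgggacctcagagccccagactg
Saa3, C/EBP motif, chr7:46715697-46715796, minus strand: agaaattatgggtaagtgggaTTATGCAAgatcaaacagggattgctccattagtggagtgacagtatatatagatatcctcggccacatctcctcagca
A match is a string of letters and not a measured binding site. Ccl6, Ccl3 and Ccl4 lie on chromosome 11 of GRCm38, at 83587882 to 83593087, 83647844 to 83649355 and 83662584 to 83664683 by the GENCODE vM21 annotation.

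Il1b, Il1rn, Cxcl2, Ccl6, Osm and Acod1 were higher in the mature neutrophil gate than in the monocyte gate in 6 of 6 libraries. Il1b had a lowest, median and highest level of 180, 261 and 581 CPM in the mature neutrophil gate, against 6.63, 16.3 and 29.0 CPM in the monocyte gate, and the ranges do not overlap. Its antagonist Il1rn had 42.8, 62.8 and 83.9 CPM in the mature neutrophil gate, against 1.07, 5.23 and 7.27 CPM in the monocyte gate. The neutrophil chemoattractant Cxcl2 had 558, 724 and 2343 CPM in the mature neutrophil gate, against 38.5, 91.6 and 437 CPM in the monocyte gate. Each of these 3 genes was thus higher in every mature neutrophil sum than in any monocyte sum.

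Acod1 had 11.2, 45.1 and 158 CPM in the mature neutrophil gate, against 0, 1.11 and 4.0 CPM in the monocyte gate. Ccl6 had 165, 415 and 831 CPM in the mature neutrophil gate, against 35.7, 95.4 and 234 CPM in the monocyte gate, and Osm had 69.1, 166 and 337 CPM in the mature neutrophil gate, against 19.2, 40.4 and 54.0 CPM in the monocyte gate. The Ccl6 ranges overlapped between libraries, although within each library the mature neutrophil gate was higher. Tnf was close in both, at 12.3 to 52.2 CPM in the mature neutrophil gate and 14.9 to 46.7 CPM in the monocyte gate. The mature neutrophil gate held 23.2% to 95.3% of all Il1b UMIs of a library and 48.2% to 95.2% of all Acod1 UMIs. The range was wider for Il1rn (10.5% to 81.6%), Cxcl2 (13.1% to 89.2%), Ccl6 (7.65% to 89.6%) and Osm (3.41% to 79.3%). In single libraries the promyelocyte gate held up to 66.2% of Osm UMIs, the monocyte gate up to 59.3% of Ccl6 UMIs and the immature neutrophil gate up to 59.0% of Il1rn UMIs. The monocyte gate also held up to 44.9% of Il1b UMIs and 39.3% of Cxcl2 UMIs, and the promyelocyte gate up to 39.2% of Cxcl2 UMIs.

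**Figure D1:**
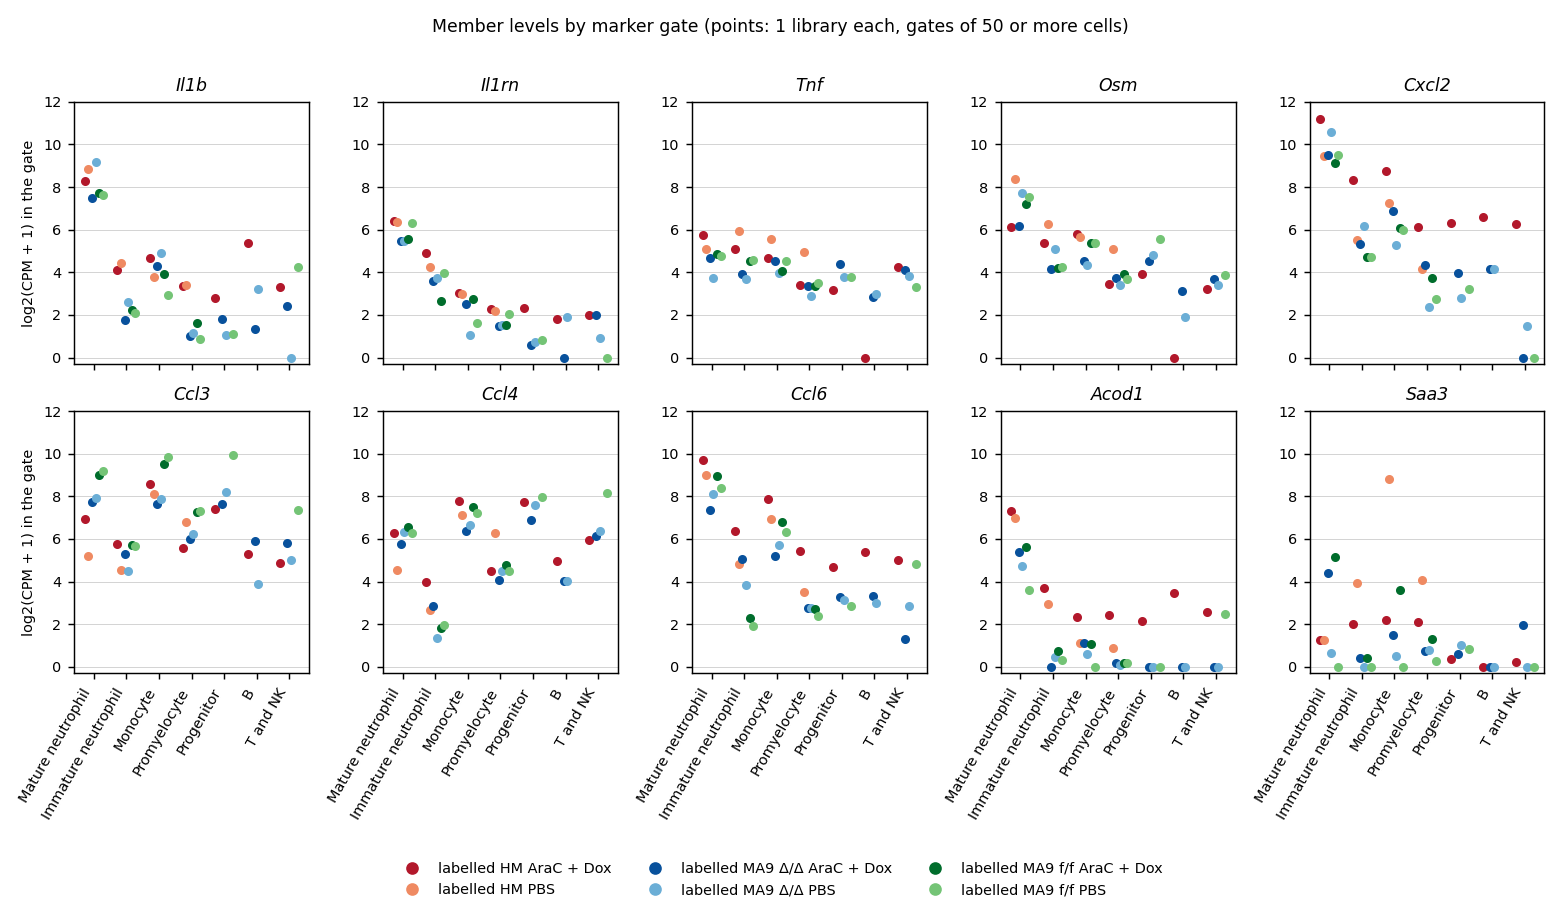
Level of each of the 10 genes as log2(CPM + 1) in each marker gate, 1 point per library with 50 or more cells in the gate. Il1b, Il1rn, Cxcl2, Ccl6, Acod1 and Osm have their highest medians in the mature neutrophil gate among gates measured in 6 libraries. Ccl3 overlaps between the mature neutrophil, monocyte and progenitor gates, and Ccl4 has higher medians in the monocyte and progenitor gates than in the mature neutrophil gate.

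The libraries served as replicates for these gate contrasts, in edgeR's quasi-likelihood test with the library as a block and Benjamini-Hochberg adjustment over 11374 genes. Mature neutrophil over monocyte, 7 of the 10 genes were higher and 1 was lower, beside 29.6% of all genes called higher and 33.6% called lower. The median of the 10 was 2.78 on the log2 scale, against -0.13 over all genes. The edgeR log2 difference was 6.24 ± 0.29 (SE) for Acod1 (adjusted p = 7.5e-09), 4.82 ± 0.30 for Il1b (adjusted p = 5.2e-08), 4.53 ± 0.31 for Il1rn (adjusted p = 1.2e-07) and 3.83 ± 0.32 for Cxcl2 (adjusted p = 7.4e-07). It was 2.81 ± 0.15 for Ccl6 (adjusted p = 1.9e-08) and 2.74 ± 0.33 for Osm (adjusted p = 1.6e-05). These 6 genes therefore stood above the spread between libraries.

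Tnf had a log2 difference of 0.98 ± 0.22 (edgeR adjusted p = 0.0017), but its CPM was higher in 4 of 6 libraries. TMM scaling moved this contrast by 0.63 on the log2 scale. With library totals alone the split of all genes was 1862 higher and 6130 lower, against 3363 and 3817, Tnf had 0.32 (adjusted p = 0.23) and the other 6 genes were still called higher. That scaling was added after seeing the data.

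Against the immature neutrophil gate, 8 of the 10 genes were higher in the mature neutrophil gate and none was lower by edgeR, beside 28.3% and 30.6% of 10429 genes. No gene of the 10 had a negative difference, and Tnf (0.25, adjusted p = 0.22) and Saa3 (1.26, adjusted p = 0.45) were the 2 not called. Il1b averaged 324 ± 165 CPM in the mature neutrophil gate and 8.58 ± 7.87 CPM in the immature neutrophil gate (SD, n = 6 libraries each), an edgeR log2 difference of 5.50 ± 0.28 (SE; adjusted p = 3.9e-08). Acod1 differed by 4.84 ± 0.34, Ccl6 by 4.76 ± 0.57, Cxcl2 by 4.21 ± 0.23 and Ccl4 by 3.81 ± 0.40 on the same scale, and Ccl3, Osm and Il1rn by 2.55, 2.46 and 2.27. Tnf averaged 29.4 ± 13.1 CPM in the mature neutrophil gate and 27.5 ± 17.7 CPM in the immature neutrophil gate (SD, n = 6 each), so Tnf transcripts were present at both stages. Without HM PBS Tnf was called higher in the mature neutrophil gate (0.48, edgeR adjusted p = 0.016).

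Ccl3 and Ccl4 had a different distribution from the other chemokines. Ccl3 had a lowest, median and highest level of 36.0, 226 and 578 CPM in the mature neutrophil gate, against 197, 326 and 930 CPM in the monocyte gate, and 169, 249 and 994 CPM in the progenitor gate of the 4 libraries with 50 or more such cells. Ccl4 had 22.0, 76.0 and 94.8 CPM in the mature neutrophil gate, 81.4, 143 and 222 CPM in the monocyte gate and 118, 203 and 248 CPM in the progenitor gate. The Ccl3 ranges overlap between all 3 gates. For Ccl4 the mature neutrophil range overlaps the monocyte range and lies below the progenitor range. Ccl3 did not differ detectably between the mature neutrophil and monocyte gates (edgeR log2 difference -0.24 ± 0.26 SE, adjusted p = 0.45), although with library totals alone it was called lower (-0.85, adjusted p = 0.049). Ccl4 was lower in 6 of 6 libraries (edgeR log2 difference -0.49 ± 0.20 SE, adjusted p = 0.044), a call that was lost when any library was left out (adjusted p of 0.053 to 0.11), except the Δ/Δ library given PBS (0.017).

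Monocyte over progenitor, 3 of the 10 genes were higher and none was lower by edgeR over 4 libraries, beside 8.64% and 5.6% of 11317 genes. Il1b differed by 3.27 ± 0.46 (SE; adjusted p = 0.0040), Ccl6 by 2.94 ± 0.22 (adjusted p = 0.00050) and Cxcl2 by 2.73 ± 0.16 (adjusted p = 0.00034). Ccl3 averaged 433 ± 340 CPM in the monocyte gate and 415 ± 390 CPM in the progenitor gate (SD, n = 4 each; edgeR adjusted p = 0.66). Ccl4 averaged 138 ± 63.1 CPM in the monocyte gate and 193 ± 54.5 CPM in the progenitor gate, with an edgeR log2 difference of -0.54 ± 0.17 (SE; unadjusted p = 0.013, adjusted p = 0.073). Ccl4 was called lower by DESeq2 (adjusted p = 0.043), and by edgeR in the MA9 libraries alone (-0.70, adjusted p = 0.0028). In these marrows the CC chemokine pair was thus measured in the progenitor gate as well as in the monocyte gate. Of the progenitor gate cells in these 4 libraries, 80.4% to 91.3% also passed another gate. Medians in the promyelocyte and immature neutrophil gates were lower, at 92.1 and 44.7 CPM for Ccl3 and 21.9 and 4.06 CPM for Ccl4.

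Other cells also held these transcripts. T and NK cells, which make Ccl4 themselves, had 61.5 to 287 CPM of Ccl4 in 4 libraries. In MA9 labelled Δ/Δ, the macrophage gate had 756 CPM of Ccl6 with AraC + Dox and 827 CPM with PBS, from 83 and 130 cells. The mature neutrophil gate of the same libraries was lower, at 165 CPM with AraC + Dox and 273 CPM with PBS. The basophil and mast gate held 96 cells in the HM AraC + Dox library, 96.9% of which passed another gate too. It had 1044 CPM of Ccl3, 567 CPM of Ccl4 and 1617 CPM of Cxcl2, and held 13.9% of that library's Ccl3 UMIs in 2.09% of its cells. It also had 318.5 CPM of Acod1, against 158 CPM in the mature neutrophil gate of that library, and 323 CPM of Il1b, against 309 CPM.

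B cells, which are not known as makers of Cxcl2 or Acod1, were used as a guide to free RNA at their own depth. Of B gate cells, 34.3% in HM AraC + Dox and 9.62% in MA9 labelled Δ/Δ with PBS also passed another gate. Free RNA and cells put in the wrong gate therefore cannot be told apart in the B gate. After thinning each cell to 2000 UMIs, Cxcl2 was seen in 63.3% of 1904 mature neutrophil gate cells and in 14.6% of 89 B gate cells of the HM AraC + Dox library, where it was 82.9% and 17.9% unthinned. Median depths there were 6085 UMIs in the mature neutrophil gate and 2211.5 in the B gate. In MA9 labelled Δ/Δ with PBS it was seen in 49.1% of 342 mature neutrophil gate cells and in 3.08% of 65 B gate cells, at median depths of 2099.5 and 1584 UMIs (59.8% and 0.759% unthinned). That B gate had 12 Cxcl2 UMIs in 395 cells, few of them positive. Cxcl2 in the T and NK gate of the HM AraC + Dox library, 11.8% of 739 thinned cells, was below the B gate share. Median depth in that T and NK gate was 4977 UMIs, so free RNA and own transcripts cannot be told apart. Il1b was seen in 25.4% of mature neutrophil gate cells and 4.49% of B gate cells of the HM AraC + Dox library. In that B gate 1 cell held 10 of the 38 Cxcl2 UMIs and 1 held 10 of the 16 Il1b UMIs.

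Saa3 rested on few cells. It had 115 UMIs in the HM AraC + Dox library and 881 in the HM PBS library, then 152, 65, 227 and 8 in those labelled MA9 Δ/Δ AraC + Dox, MA9 Δ/Δ PBS, MA9 f/f AraC + Dox and MA9 f/f PBS. Of those in the HM PBS library 87.4% lay in the 158 cells of the monocyte gate, 12 of which held 10 or more, and 1 cell held 197. In MA9 labelled Δ/Δ with AraC + Dox, 1 macrophage gate cell held 55 of the 152. The fullest cell held 22.4% of the Saa3 UMIs in HM PBS, 36.2% in Δ/Δ AraC + Dox and 16.3% in f/f AraC + Dox, while no cell held more than 3 in Δ/Δ PBS or more than 1 in f/f PBS. Its mature neutrophil over monocyte contrast was not called (edgeR log2 difference -0.07 ± 1.46 SE, adjusted p = 0.97). Without HM PBS that difference was 1.77 (adjusted p = 0.027), and in the MA9 libraries alone 2.67 (adjusted p = 0.00041).

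Within cells, detection of a pair of genes is given as a description, since depth and cell state are shared. In the mature neutrophil gate Cxcl2 was seen in 83.9%, 55.9%, 65.2%, 64.8%, 40.0% and 63.9% of cells with an Il1b UMI, against 56.3%, 33.6%, 31.9%, 43.4%, 25.5% and 36.9% of cells without one. These are the HM AraC + Dox and HM PBS libraries and then those labelled MA9 Δ/Δ AraC + Dox, MA9 Δ/Δ PBS, MA9 f/f AraC + Dox and MA9 f/f PBS, all thinned to 2000 UMIs. The share was higher beside Il1b in all 6. Il1rn had no such order: it was seen in 20.1% of Il1b-positive and 14.6% of Il1b-negative cells in the HM AraC + Dox library, but in 15.4% and 15.8% in the HM PBS library. In the monocyte gate Ccl4 was seen in 9.80% to 29.6% of cells with Ccl3 and in 3.03% to 8.86% of cells without it.

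Over all kept cells, both HM libraries were higher than every MA9 library for 7 of the 10 genes: Il1b, Il1rn, Tnf, Osm, Cxcl2, Ccl6 and Acod1. The share of all genes with this order was not computed, so the count is a description only. Il1b stood at 97.3 and 206 CPM in the HM AraC + Dox and HM PBS libraries, against 5.26, 15.8, 7.33 and 7.38 CPM in those labelled MA9 Δ/Δ AraC + Dox, MA9 Δ/Δ PBS, MA9 f/f AraC + Dox and MA9 f/f PBS. Cxcl2 stood at 797 and 334 CPM in the HM libraries, against 37.5, 41.1, 32.1 and 36.9 CPM in the MA9 libraries in the same order. Acod1 stood at 52.8 and 55.9 CPM in the HM libraries, against 0.58, 0.60, 1.10 and 0.45 CPM in the MA9 libraries. Ccl6 stood at 285 and 243 CPM in the HM libraries, against 14.6, 21.4, 27.9 and 20.7 CPM in the MA9 libraries. None of these 4 genes overlaps between the leukaemias.

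Ccl3 did not follow this order, at 135 and 65.1 CPM in the HM AraC + Dox and HM PBS libraries, against 85.2, 141, 222 and 253 CPM in the MA9 libraries in the same order. Ccl4 stood at 96.2 and 36.6 CPM in the HM libraries, against 28.5, 69.3, 45.6 and 41.6 CPM in the MA9 libraries. Both genes overlap between the leukaemias. The shares of cells in the mature neutrophil gate were 44.6% and 57.7% in the HM libraries and 2.13% to 7.16% in the MA9 libraries.

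**Figure D2:**
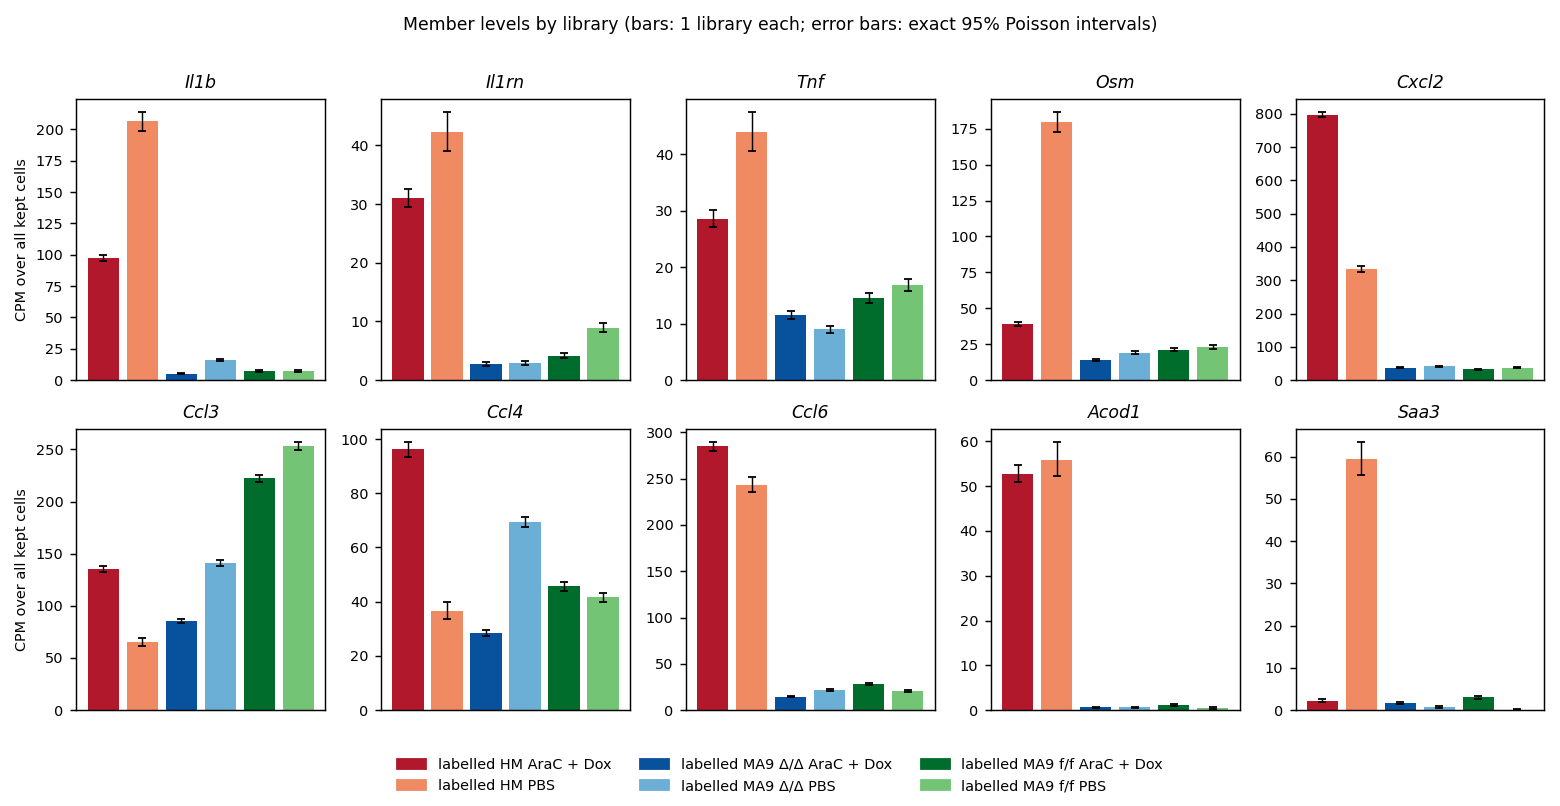
CPM of each gene over all kept cells, 1 bar per library with its exact 95% Poisson interval. The HM bars exceed every MA9 bar for Il1b, Il1rn, Tnf, Osm, Cxcl2, Ccl6 and Acod1, and overlap the MA9 bars for Ccl3 and Ccl4.

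HM over MA9, a comparison added after seeing the data, was fitted with edgeR on 2 against 4 libraries, whose treatments differ within each side and whose Shp-1 labels differ within MA9. Over all kept cells 8 of the 10 genes were higher and none was lower, beside 12.4% and 9.85% of 14169 genes. Acod1 differed by 6.88 ± 0.39 (SE; adjusted p = 0.00055), Il1b by 4.70 ± 0.49 (adjusted p = 0.0026), Cxcl2 by 4.48 ± 0.31 (adjusted p = 0.00073), Ccl6 by 4.20 ± 0.28 (adjusted p = 0.00065) and Il1rn by 3.53 ± 0.52 (adjusted p = 0.0070). Osm differed by 3.10 ± 0.55 (adjusted p = 0.012) and Tnf by 2.05 ± 0.34 (adjusted p = 0.0095). Ccl3 (-0.28, unadjusted p = 0.59) and Ccl4 (1.08, unadjusted p = 0.034, adjusted p = 0.099) were not called. Saa3 (5.10 ± 1.34, adjusted p = 0.036) was also called, but not without HM PBS (1.16, adjusted p = 0.56) or without any 1 of the MA9 libraries (adjusted p of 0.052 to 0.086). Without HM PBS Osm was at 1.47 (adjusted p = 0.032), and DESeq2 called Ccl4 higher (1.12, adjusted p = 0.046) and none lower.

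Within the mature neutrophil gate 4 of the 10 genes were higher in HM than in MA9 and none was lower by edgeR, beside 8.7% and 6.86% of 8008 genes. Acod1 averaged 142 ± 23.1 CPM in the HM libraries and 31.6 ± 16.8 CPM in the MA9 libraries (SD, n = 2 and n = 4), a log2 difference of 2.95 ± 0.43 (SE; adjusted p = 0.0025). Ccl6 differed by 1.79 ± 0.40 (adjusted p = 0.016), Tnf by 1.63 ± 0.35 (adjusted p = 0.015) and Il1rn by 1.35 ± 0.31 (adjusted p = 0.019). Il1b averaged 387 ± 110 CPM in HM and 293 ± 193 CPM in MA9 and was not called (1.15 ± 0.45, unadjusted p = 0.028, adjusted p = 0.11), nor was Cxcl2 (1.52 ± 0.47, adjusted p = 0.054). Both were called by DESeq2 (adjusted p = 0.049 and 0.0074) and without the library labelled Δ/Δ PBS (1.69, adjusted p = 0.013, and 1.89, adjusted p = 0.031). Cxcl2 was also called without HM PBS (2.14, adjusted p = 0.0099), and Osm without HM AraC + Dox (1.89, adjusted p = 0.017). Ccl3 averaged 78.3 ± 59.8 CPM in HM and 387 ± 187 CPM in MA9 (-1.61 ± 0.58, adjusted p = 0.091) with unadjusted p = 0.020. It was called lower by DESeq2 (adjusted p = 0.011), without a filter on low counts (-1.53, adjusted p = 0.00021) and without the HM AraC + Dox library (-2.66, adjusted p = 0.026). Saa3 was not called there (-2.40, adjusted p = 0.23), and differences between the fits of the gate and of all kept cells were not tested. Of the calls, Ccl6 was lost without HM AraC + Dox (1.47, adjusted p = 0.051), and Il1rn was lost without the library labelled Δ/Δ PBS (1.24, adjusted p = 0.061) or f/f AraC + Dox (1.31, adjusted p = 0.062).

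Within the monocyte gate 3 of the 9 genes tested were higher and none was lower by edgeR, beside 8.07% and 7.48% of 10960 genes. They were Cxcl2 (2.37 ± 0.50 SE, adjusted p = 0.021), Tnf (1.15 ± 0.28, adjusted p = 0.030) and Saa3 (6.11 ± 1.63, adjusted p = 0.042). Each call was lost when 1 of the HM libraries was left out: Cxcl2 without HM AraC + Dox (1.28, adjusted p = 0.19), Tnf without HM PBS (0.79, adjusted p = 0.13) and Saa3 without HM PBS (0.41, adjusted p = 0.90). Leaving out any 1 MA9 library also ended 1 or 2 of them, with adjusted p of 0.051 to 0.090. Ccl6 just missed the threshold (1.65, adjusted p = 0.050) and was called by DESeq2 (adjusted p = 0.0037). The only negative difference was that of Ccl3 (-0.40, unadjusted p = 0.55, adjusted p = 0.70).

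TMM scaling moved these contrasts by 0.57, 0.68 and 0.27 on the log2 scale for all kept cells, the mature neutrophil gate and the monocyte gate. With library totals alone all genes split into 1141 higher and 4465 lower over all kept cells, 249 and 2547 in the mature neutrophil gate and 544 and 1752 in the monocyte gate, against 1763 and 1396, 697 and 549, and 884 and 820. In the mature neutrophil gate Il1rn (0.68, adjusted p = 0.095) and Tnf (0.97, adjusted p = 0.058) were then not called and Ccl3 was called lower (-2.25, adjusted p = 0.019). The HM matrices also list 32285 features against 31053 and have 17-base barcodes against 16, and the HM PBS library lost most barcodes to the mitochondrial limit. Leukaemia and these differences between deposits cannot be told apart.

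**Figure D3:**
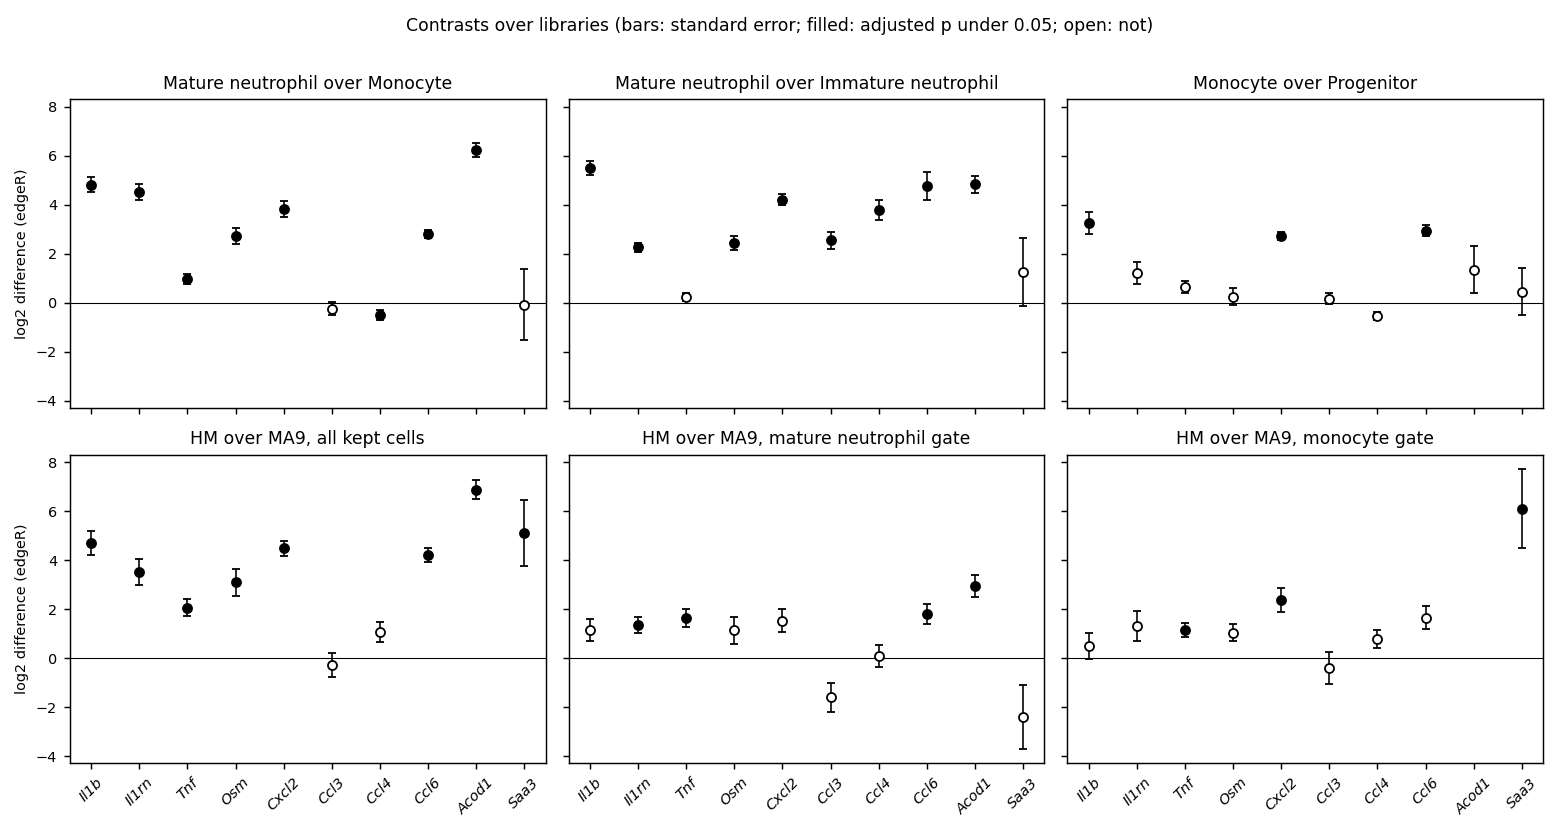
edgeR log2 difference of each gene with its standard error, in 3 gate contrasts blocked by library and in HM over MA9 for all kept cells and for 2 gates; filled points have an adjusted p under 0.05. Il1b, Il1rn, Cxcl2, Ccl6, Osm and Acod1 are well above 0 in mature neutrophil over monocyte, and Ccl3 lies near 0 there.

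Within a pair, each treated library was set against 1 PBS library with no test, and a 2-fold difference at 5 CPM or more was counted as a size only. Intervals are exact Clopper-Pearson 95% intervals for counting error. In HM, AraC + Dox over PBS, Cxcl2, Ccl3 and Ccl4 were at least 2-fold higher and Il1b, Osm and Saa3 at least 2-fold lower, 3 of 10 each way, beside 13.6% and 9.58% of 8654 genes. In HM PBS 22.1% of barcodes passed the filter, against 87.2% in HM AraC + Dox. Treatment and library quality thus cannot be told apart in this pair. Cxcl2 had 797 CPM in AraC + Dox and 334 CPM in PBS, a log2 ratio of 1.26 (1.21 to 1.30). Ccl4 had 96.2 CPM in AraC + Dox and 36.6 CPM in PBS, a log2 ratio of 1.39 (1.26 to 1.52), and Ccl3 had 135 CPM and 65.1 CPM, a log2 ratio of 1.06 (0.96 to 1.16).

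Osm had 39.0 CPM in HM AraC + Dox and 180 CPM in HM PBS, a log2 ratio of -2.20 (-2.29 to -2.12). Il1b had 97.3 CPM in AraC + Dox and 206 CPM in PBS, a log2 ratio of -1.08 (-1.15 to -1.02). Il1rn (-0.45), Tnf (-0.62), Ccl6 (0.23) and Acod1 (-0.08) stayed within 2-fold. The median of the 10 genes was -0.27, against 0.11 over all genes. With the mitochondrial limit at 20%, Il1b was at -0.93 and Ccl3 at 0.82, both within 2-fold. When each cell weighed the same, Il1b was at -0.43 and Ccl3 at 2.02.

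Osm and Cxcl2 also differed inside gates. In the mature neutrophil gate Osm had 69.1 CPM in HM AraC + Dox and 337 CPM in HM PBS, a log2 ratio of -2.28 (-2.40 to -2.17), and it was lower in the immature neutrophil (-0.92) and promyelocyte (-1.73) gates but not detectably in the monocyte gate (0.12, -0.23 to 0.49). Cxcl2 had 2343 CPM in AraC + Dox and 703 CPM in PBS there, a log2 ratio of 1.74 (1.69 to 1.78), and it was at 2.86 (2.66 to 3.06) in the immature neutrophil gate, and 1.52 in the monocyte gate, where 1 cell of HM PBS held 137 of 265 UMIs. Whether free RNA moved with it cannot be told. The HM AraC + Dox library had 96.6 CPM of Cxcl2 in its B gate, and HM PBS had 2 B gate cells, too few to measure. The promyelocyte gate had 69.4 CPM in AraC + Dox and 16.7 CPM in PBS (log2 ratio 2.06, 1.40 to 2.80), from 690 and 19 UMIs. Its cells in AraC + Dox were deeper than those of the B gate, at medians of 51352 and 2211.5 UMIs. Their CPM therefore does not compare free RNA, whose share was not measured. Cxcl2 was thus higher in the HM AraC + Dox library than in the HM PBS library in the mature neutrophil, immature neutrophil, monocyte and promyelocyte gates.

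Il1b was lower in the mature neutrophil gate of HM AraC + Dox (309 CPM, against 465 CPM in PBS; log2 ratio -0.59). In the monocyte gate it had 24.7 CPM in HM AraC + Dox and 12.7 CPM in HM PBS (log2 ratio 0.96, 0.31 to 1.68), from 136 and 22 UMIs. The B gate of HM AraC + Dox had 40.7 CPM, at a median depth of 2211.5 UMIs, against 12260 in the monocyte gate. The share of free RNA in the monocyte gate was not measured. Ccl3 and Ccl4 were higher in the mature neutrophil gate (log2 ratios 1.74 and 1.79) and in the immature one (1.29 and 1.51), but lower in the promyelocyte gate (-1.22 and -1.80). Tnf was at 0.68 in the mature neutrophil gate, -0.91 in the monocyte gate and -0.87 in the immature neutrophil gate. Saa3 stood at 3.64 CPM in the monocyte gate of HM AraC + Dox and 444 CPM in that of HM PBS, where 1 cell held 197 UMIs.

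**Figure D4:**
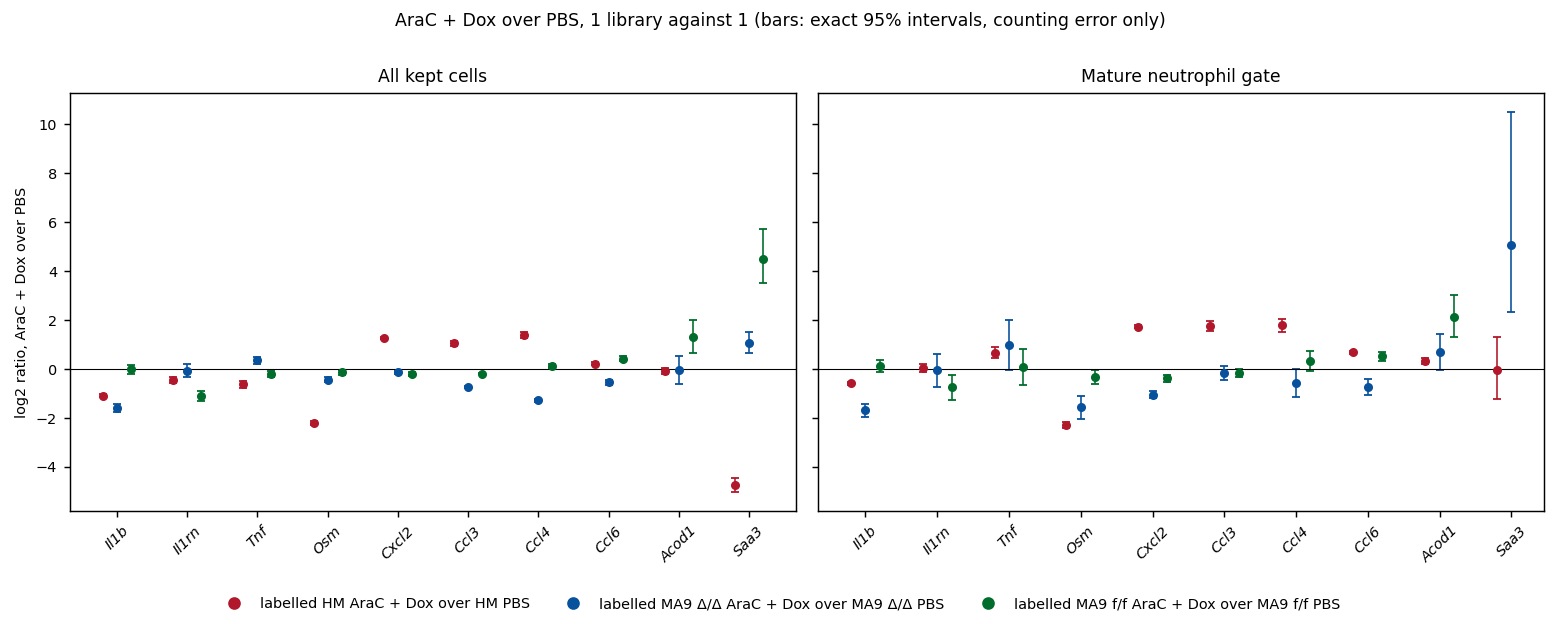
log2 ratio of AraC + Dox over PBS for each gene in the HM pair and in the pairs labelled MA9 Δ/Δ and MA9 f/f, over all kept cells (left) and in the mature neutrophil gate (right), with exact 95% intervals for counting error. Saa3 in the mature neutrophil gate of the f/f pair, with 0 UMIs in PBS, is not drawn. Over all kept cells Cxcl2 sits at 1.26 and Osm at -2.20 in HM, while in the MA9 pairs Cxcl2 lies at -0.13 and -0.20 and Osm at -0.43 and -0.12.

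In the MA9 pair labelled f/f, AraC + Dox over PBS, none of the 8 measured genes was 2-fold higher and 1 was 2-fold lower, beside 0.695% and 1.47% of 9062 genes. That gene was Il1rn, at 4.18 CPM in AraC + Dox and 8.87 CPM in PBS, a log2 ratio of -1.08 (-1.29 to -0.88). The other 7 ranged from -0.21 for Tnf to 0.43 for Ccl6, among them Ccl3 with 222 CPM in AraC + Dox and 253 CPM in PBS. In the mature neutrophil gate Acod1 had 48.9 CPM in AraC + Dox and 11.2 CPM in PBS, from 50 and 17 UMIs, a log2 ratio of 2.12 (1.30 to 3.01). Saa3 had 36 UMIs in that gate after AraC + Dox and 0 in PBS, which against a floor of 3 UMIs is a log2 ratio of at least 4.15, and 1 cell held 25 of the 36.

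Labelled Δ/Δ, AraC + Dox over PBS, none of the 7 measured genes was 2-fold higher and 2 were 2-fold lower, beside 1.2% and 2.24% of 9320 genes. Il1b had 5.26 CPM in AraC + Dox and 15.8 CPM in PBS, a log2 ratio of -1.59 (-1.74 to -1.44), and Ccl4 had 28.5 CPM in AraC + Dox and 69.3 CPM in PBS, a log2 ratio of -1.28 (-1.35 to -1.22). The mature neutrophil gate held 2.13% of the AraC + Dox cells and 7.16% of the PBS cells. Inside that gate Il1b was still lower at 180 CPM in AraC + Dox and 581 CPM in PBS (log2 ratio -1.69, -1.98 to -1.41), as were Osm (-1.56) and Cxcl2 (-1.06). Cxcl2 ran the other way in the monocyte gate, at 117 CPM in AraC + Dox and 38.5 CPM in PBS (1.60, 1.42 to 1.79). It also did in the promyelocyte gate, at 19.2 CPM in AraC + Dox and 4.12 CPM in PBS (2.22, 2.01 to 2.44). B gate levels were 16.8 and 16.6 CPM, at median depths of 1276 and 1584 UMIs, against 13855.5 and 12934.5 in the promyelocyte gate. The share of free RNA in the promyelocyte gate was not measured. Over all kept cells Cxcl2 had 37.5 CPM in AraC + Dox and 41.1 CPM in PBS. The ratio of Ccl4 was nearer 0 in the large gates, at -0.55 in the mature neutrophil, -0.28 in the monocyte, -0.45 in the promyelocyte and -0.72 in the progenitor gate, and 1.95 in the immature neutrophil gate from 18 and 4 UMIs. The progenitor gate held 3.32% of the AraC + Dox cells and 22.7% of the PBS cells, and 8.47% and 60.7% of their Ccl4 UMIs.

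AraC + Dox over PBS was also tested over the 3 pairs (HM, MA9 Δ/Δ and MA9 f/f), with the pair as a block in edgeR, a test added after seeing the data. Over all kept cells none of the 10 genes was called in either direction, beside 0% and 0% of 14169 genes. At an unadjusted p under 0.05 there were 497 genes, among them Il1b alone of the 10, and DESeq2 called 13 genes higher and 45 lower and none of the 10. Il1b was lower in 3 of 3 pairs, with an edgeR log2 difference of -0.92 ± 0.33 (SE; unadjusted p = 0.035, adjusted p = 0.82). Osm (-0.91 ± 0.48, adjusted p = 0.82) and Il1rn (-0.55 ± 0.26, adjusted p = 0.82) were also lower in 3 of 3 pairs without a call.

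By the same test none of the 10 genes was called in the mature neutrophil gate, beside 0.025% higher and 0.0375% lower of 8008 genes. At an unadjusted p under 0.05 there were 1019 genes and 4 of the 10. Osm averaged 96.2 ± 44.6 CPM in AraC + Dox and 244 ± 81.5 CPM in PBS (SD, n = 3 each) and was lower in 3 of 3 pairs, an edgeR log2 difference of -1.45 ± 0.36 (SE; unadjusted p = 0.0030, adjusted p = 0.34). DESeq2 called it lower (adjusted p = 0.040), and so did edgeR without a filter on low counts (-1.48, adjusted p = 6.5e-05) and without the HM pair (-0.90, adjusted p = 0.0052). Acod1 was higher in 3 of 3 pairs (0.88 ± 0.34, adjusted p = 0.37), Il1b was lower in 2 of 3 (-0.75 ± 0.33, adjusted p = 0.39) and Saa3 was higher in 2 of 3 (2.88 ± 1.02, adjusted p = 0.35, and 0.00015 without a filter on low counts). Cxcl2 was at 0.04 (adjusted p = 0.98), higher in 1 of 3 pairs, and without the HM pair it was called lower (-0.75, adjusted p = 0.018). Without that pair Il1b was also called lower (-0.80, adjusted p = 0.012) and Acod1 (1.33, adjusted p = 0.0044) and Saa3 (6.01, adjusted p = 5.4e-13) higher, on 4 libraries.

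Ccl3 was lower in both libraries labelled Δ/Δ than in their f/f counterparts. Labelled Δ/Δ over f/f with PBS, Ccl3 had 141 CPM in Δ/Δ and 253 CPM in f/f, a log2 ratio of -0.84 (-0.88 to -0.81), and with AraC + Dox 85.2 CPM in Δ/Δ and 222 CPM in f/f, a log2 ratio of -1.38 (-1.42 to -1.35). In the monocyte gate it had 231 CPM in Δ/Δ PBS and 930 CPM in f/f PBS, a log2 ratio of -2.01 (-2.09 to -1.93), and 197 CPM in Δ/Δ AraC + Dox and 727 CPM in f/f AraC + Dox, a log2 ratio of -1.89 (-1.95 to -1.82). The mature neutrophil gate had -1.27 with PBS and -1.28 with AraC + Dox, and the promyelocyte gate had -1.09 and -1.31. The progenitor gate had 298 CPM in Δ/Δ PBS and 994 CPM in f/f PBS (-1.74). The sign was thus the same in every myeloid gate compared, with the smallest difference in the immature neutrophil gate of the AraC + Dox pair (-0.44).

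With PBS, Δ/Δ over f/f, 1 of 8 measured genes was 2-fold higher and 1 was 2-fold lower, beside 5.44% and 3.92% of 9378 genes. Il1b had 15.8 CPM in Δ/Δ and 7.38 CPM in f/f, a log2 ratio of 1.10 (0.94 to 1.26), and Il1rn had 2.88 CPM in Δ/Δ and 8.87 CPM in f/f, a log2 ratio of -1.63 (-1.85 to -1.41). Cytokine and antagonist also differed in sign inside the mature neutrophil gate, where Il1b had 581 CPM in Δ/Δ and 196 CPM in f/f (1.57, 1.38 to 1.76) and Il1rn had 44.0 CPM and 78.6 CPM (-0.84, -1.27 to -0.41). In the immature neutrophil gate Il1rn was at -0.27 (-0.85 to 0.26). That gate held 3.32% of the cells and 12.4% of the Il1rn UMIs in Δ/Δ PBS, and 38.2% of the cells and 59.0% of the Il1rn UMIs in f/f PBS. In the mature neutrophil gate Cxcl2 had 1511 CPM in Δ/Δ and 722 CPM in f/f (1.07), and Tnf 12.3 CPM and 26.4 CPM (-1.10, from 21 and 40 UMIs). Over all kept cells Ccl4 had a ratio of 0.74 and Tnf of -0.91, against a median of 0.16 over all genes. No gate had such a positive Ccl4 ratio: it was 0.05 in the mature neutrophil gate, -0.02 in the promyelocyte gate, -0.35 (-0.47 to -0.23) in the progenitor gate, -0.60 in the monocyte gate, -0.85 in the immature neutrophil gate and -1.78 in the T and NK gate. The progenitor gate held 22.7% of the cells in Δ/Δ PBS and 4.40% in f/f PBS.

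With AraC + Dox, Δ/Δ over f/f, none of the 7 measured genes was 2-fold higher and Ccl3 alone was 2-fold lower, beside 6.53% and 4.85% of 9279 genes. Ccl6 was at -0.93 (-1.03 to -0.84) over all kept cells, with 165 CPM in Δ/Δ and 490 CPM in f/f in the mature neutrophil gate (-1.57) and 35.7 CPM and 112 CPM in the monocyte gate (-1.65). In the immature neutrophil gate it ran the other way, at 32.5 CPM in Δ/Δ and 3.94 CPM in f/f (3.04, 2.62 to 3.47), and in the promyelocyte gate it was at 0.03. Ccl4 was at -0.68 over all kept cells and -1.13 in the monocyte gate. Il1b was at -0.48 over all kept cells and had 180 CPM in Δ/Δ and 213 CPM in f/f in the mature neutrophil gate (-0.24, -0.58 to 0.09), an interval that includes 0. Il1rn was under 5 CPM in both of these libraries, and Acod1 and Saa3 were under 5 CPM in every MA9 library.

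The genes around these cytokines were counted in 5 lists: receptors and decoys, release and processing, sensors and signal, feedback and induced genes, and other cytokines and chemokines. Mature neutrophil over monocyte, edgeR called 4 receptors higher and 2 lower of 9 tested, 6 release genes higher and 1 lower of 8, 11 sensors higher and 1 lower of 15, 11 feedback genes higher and none lower of 12, and 5 other cytokines higher and 6 lower of 15, beside 29.6% higher and 33.6% lower over all genes. The shares of receptors and of other cytokines were near that background. Nlrp12, a cytosolic NOD-like receptor, averaged 35.2 CPM in the mature neutrophil gate and 0.326 CPM in the monocyte gate (7.46 ± 0.33 SE, adjusted p = 6.1e-09). The IL-1 decoy receptor Il1r2 averaged 254.5 CPM and 19.9 CPM in the same gates (4.93 ± 0.25, adjusted p = 1.3e-08), Ltb, a membrane-bound lymphotoxin, 164 and 10.6 CPM (4.61), and the C-type lectin receptor Clec4e 430 and 78.0 CPM (3.42). Mature over immature neutrophil, 7 of 8 receptors, 7 of 8 release genes, 13 of 15 sensors, 11 of 12 feedback genes and 9 of 11 other cytokines were higher and 1 release gene was lower, beside 28.3% and 30.6% of all genes. There the inflammasome sensor Nlrp3 averaged 57.2 CPM in the mature neutrophil gate and 3.61 CPM in the immature one (4.42 ± 0.45, adjusted p = 3.0e-06), and Socs3, a feedback inhibitor of cytokine signals, 34.3 and 3.23 CPM (3.42).

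Monocyte over progenitor, 5 of 9 receptors, 2 of 7 release genes, 6 of 15 sensors, 2 of 12 feedback genes and 4 of 12 other cytokines were higher, and 1 other cytokine was lower, beside 8.64% and 5.6% of all genes. Ccl2, the monocyte attractant, averaged 105 CPM in the monocyte gate and 2.28 CPM in the progenitor gate (5.54 ± 0.29 SE, edgeR adjusted p = 0.00034), and the lipopolysaccharide co-receptor Cd14 61.1 and 7.73 CPM (2.97 ± 0.22, adjusted p = 0.00048). HM over MA9 over all kept cells, 4 of 11 receptors, 3 of 8 release genes, 10 of 15 sensors, 9 of 14 feedback genes and 8 of 20 other cytokines were higher, and 1 other cytokine was lower, beside 12.4% and 9.85% of all genes. In the mature neutrophil gate the same lists had 1 of 5, 1 of 8, 1 of 15, 3 of 12 and 3 of 10 higher, and 1 release gene and 1 other cytokine lower, beside 8.7% and 6.86% of all genes. The release genes and sensors were near that background. The decoy Il1r2 averaged 509 CPM in HM and 127 CPM in MA9 in that gate (2.74 ± 0.35, adjusted p = 0.0015), and Cxcl10, an interferon-induced chemokine, 53.4 and 2.09 CPM (5.20 ± 0.71, adjusted p = 0.0019).

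Between libraries, HM AraC + Dox over HM PBS had 2-fold higher levels of 3 of 15 sensors, 3 of 13 feedback genes and 4 of 10 other cytokines, and lower ones of 2 of 7 receptors, 1 of 8 release genes, 1 sensor, 1 feedback gene and 2 other cytokines, beside 13.6% and 9.58% of all genes. The sensors and feedback genes were not far from that background. Nfkbia, the NF-kappa-B inhibitor that NF-kappa-B itself induces, had 963 CPM in AraC + Dox and 214 CPM in PBS (log2 ratio 2.17, 2.12 to 2.22). Ccl5, a chemokine of T and NK cells, had 203 and 21.9 CPM (3.21), while Cxcl10 had 22.6 and 90.9 CPM (-2.01) and the Cxcl2 receptor Cxcr2 118 and 362 CPM (-1.62). The T and NK gate held 801 cells of HM AraC + Dox and 49 cells of HM PBS. In the pairs labelled Δ/Δ and f/f, the granule gene Lcn2, itself an immature neutrophil marker, had 468 CPM in Δ/Δ PBS and 2810 CPM in f/f PBS (-2.59), and the immature neutrophil gate held 303 and 3146 cells of them.

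The genes of most like pattern were found by Pearson correlation of log2(CPM + 1) over 38 sums of library and gate, across 9237 genes, as a description with no test, since sums of 1 library share its depth and free RNA. For Il1b they were Acod1 (r = 0.88), Tarm1 (0.86) and Plk3 (0.85), and for Acod1 Il1b, Upp1 (0.83) and Slc7a11 (0.83). Cxcl2 was most like Litaf (0.90), Bst1 (0.89) and Clec4e (0.88), and Ccl6 was most like Pla2g7 (0.91), Litaf (0.90) and Slc11a1 (0.89). Il1rn was most like Ppp1r3d (0.93), Mocos (0.92) and C5ar1 (0.91). Ccl3 was most like Kcne3 (0.80), Mettl7a1 (0.76) and Ccl4 (0.75), and Ccl4 most like S100a10 (0.78), Rab19 (0.77) and Itgb7 (0.77). Osm was most like 1600010M07Rik (0.83), Mpc2 (0.80) and Atg7 (0.79), Tnf most like Osm (0.76), Diaph2 (0.73) and 9330160F10Rik (0.71), and Saa3 most like Mfsd7a (0.71), Cfb (0.66) and Cd302 (0.66). Il1b and Acod1 thus head each other's lists, as members of the group, and Ccl3 has Ccl4 among its 3.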

How the data were processed

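The values the authors deposited are raw counts of UMIs, not normalised, for barcodes of at least 500 UMIs. Libraries came from flushed marrow after red cell lysis, with a Chromium 3′ kit, per the labels. Per the submitters' processing notes, reads were aligned to mm10 with Cell Ranger 3.0.2, which the headers of the HM files do not name. The sources used here do not say whether a library is a single animal, so p-values measure the spread between libraries only.

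Kept cells had 500 or more genes and no more than 10% of UMIs from mitochondrial genes. Scrublet (scanpy 1.11.5) doublets, 29 to 546 per library, were removed; its automatic threshold marked under 0.5% of cells in 4 libraries, where the mean threshold of the other two, 0.195, was used, a choice made after seeing the data. A gate needs 2 or more markers, each at no less than 0.5 times its mean CPM, and 50 cells to be measured. This gate definition was set after seeing the data. Shares of cells were taken after thinning to 2000 UMIs, which left 4218 of 4598 cells of HM AraC + Dox, 2360 of 2726 of HM PBS and 7542 to 8410 of each MA9 library.

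Sums of counts per library and gate were tested with edgeR 4.0.16 in R 4.3.3, gate markers left out, against an adjusted p of 0.05; DESeq2 1.42.0 was an alternative. AraC + Dox over PBS was tested over 3 pairs of libraries, the pair as a block, also chosen after seeing the data. The fits were tested on simulated data. Intervals and floors (3 counts) cover counting error only. Overlap with the opposite-strand genes Il1bos (Il1b) and E230016K23Rik (Ccl6) was not resolved. The genes and lists were chosen with earlier results of these data known. All 10 genes are named, with up to 4 list genes of 20 CPM or more and the largest absolute log2 value per comparison, and 3 genes of like pattern each. Alternatives changed the scaling, the low filter, the doublet and mitochondrial limits, the gate, the thinning (1000 UMIs), shared barcodes and the libraries used.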

Additional observations from a re-analysis of the deposited data

Results flagged for a closer look

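Each gene below had ratios of opposite sign in libraries set against each other in the same way, with 95% counting intervals that exclude 0. The differences between the pairs were not tested, since each ratio compares 1 library with 1.

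Il1b, Δ/Δ over f/f, had a log2 ratio of -0.48 with AraC + Dox and 1.10 with PBS. Ccl4, Δ/Δ over f/f, had -0.68 with AraC + Dox and 0.74 with PBS. In the monocyte gate both Ccl4 ratios were negative, at -1.13 with AraC + Dox and -0.60 with PBS, and the progenitor gate held 22.7% of the Δ/Δ PBS cells and 4.40% of the f/f PBS cells. Tnf, AraC + Dox over PBS, had 0.36 for Δ/Δ and -0.21 for f/f. Ccl4, AraC + Dox over PBS, had -1.28 for Δ/Δ and 0.13 for f/f, and Ccl6 had -0.55 for Δ/Δ and 0.43 for f/f. Cxcl2, AraC + Dox over PBS, had 1.26 in HM, against -0.13 in MA9 Δ/Δ and -0.20 in MA9 f/f, by their labels. Ccl3 had 1.06 in HM, against -0.73 and -0.19 in the same MA9 pairs. The MA9 ratios share libraries, so they are not independent of each other.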

How the results depend on the processing

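Of 178 counts of called genes recomputed with edgeR or DESeq2, 151 stayed within 1.5 times the reported count, as did 50 of 60 counts past 2-fold. Of 862 edgeR or DESeq2 log2 differences, 791 kept direction and call, 32 lost and 36 gained a call, and 3 reversed, 2 of them Saa3 in mature neutrophil over monocyte: 1.77 (adjusted p = 0.027) without HM PBS (-1.71 to 1.77 with each library left out in turn) and 2.67 (adjusted p = 0.00041) in the MA9 libraries alone. The third was Cxcl2 in AraC + Dox over PBS, mature neutrophil gate, at -0.75 (adjusted p = 0.018) without the HM pair (-0.75 to 0.64 with each pair left out in turn). Of 200 log2 ratios 132 moved by less than their counting interval, as did 689 of 1230 shares of cells.

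Genes called lower in mature neutrophil over monocyte were 0 by RLE scaling, DESeq2 and the MA9 libraries alone, 2 with library totals alone, and 0 to 1 when each library was left out in turn, with 7 to 8 higher. In monocyte over progenitor 1 was lower by DESeq2 and in the MA9 libraries alone, and 0 to 1 in turn. For HM over MA9 in the mature neutrophil gate, 7 were higher and 2 lower without a filter, 2 higher with 3 markers, 2 higher and 1 lower with totals alone, 1 lower by DESeq2, and 3 to 5 higher and 0 to 1 lower in turn. In the monocyte gate 1 to 2 were higher in turn. For AraC + Dox over PBS over 3 pairs, in the mature neutrophil gate, 1 was higher and 1 lower without a filter, 1 lower by DESeq2, and 0 to 2 higher and 0 to 3 lower with each pair left out in turn.

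Past 2-fold, Δ/Δ PBS over f/f PBS had 0 higher and 3 lower by median-of-ratios scaling, 0 and 0 at a 20 CPM minimum, and 2 and 0 by the mean over cells. Δ/Δ AraC + Dox over f/f AraC + Dox had 2 lower by median-of-ratios scaling, f/f AraC + Dox over PBS had 0 lower at 20 CPM, and Δ/Δ AraC + Dox over PBS had 1 lower at 20 CPM and 5 by the mean over cells. The causes were not tested. The labels give no replicate numbers, and pairs share only the leukaemia and Shp-1 label. With no replicate block, AraC + Dox over PBS called 0 of the 10 higher and 0 lower in either fit, with Osm at -1.82 over all kept cells and -1.53 in the mature neutrophil gate. Low counts limit Acod1 and Saa3 in MA9, and the gates of under 200 cells. When 1 HM library is left out, the other is assumed to vary like the MA9 group.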
